A study of Mus musculus with 6 samples.

Results

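The smooth-muscle cluster of miR-143 and miR-145 was followed as 4 of the 1982 mature miRNAs in the deposited count table, mmu-miR-143-3p, mmu-miR-143-5p, mmu-miR-145a-5p and mmu-miR-145a-3p. The rows were chosen by name, as both arms of both hairpins. The cluster was picked with earlier results of the same comparison in view, among them a call of miR-143-3p by DESeq2, so all values between the groups are given as a description and support nothing by themselves. The question was whether the cluster mates moved together.

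miR-143 and miR-145 are made from a pair of neighbouring hairpins that are transcribed together, and they are best known from the smooth muscle of vessel walls, gut and airways. Each hairpin can give a mature miRNA from its 5′ arm and another from its 3′ arm, and usually 1 of them is loaded into the silencing complex and kept while the other is degraded. In smooth muscle the pair is switched on by serum response factor and myocardin and helps to hold the cells in their contractile state, in part by repressing the transcription factors Klf4 and Klf5. Other mesenchymal cells, such as fibroblasts, also make them.

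The samples were serum exosomes, vesicles shed by cells into blood, from male C57BL/6 mice aged 3 months that were restrained awake without anesthesia. The 3 sham mice, numbered 1 to 3, had needles near the treatment points wired to the device with no current, and the 3 Acu/LFES mice, numbered 4 to 6, had electrical acupuncture on the hindlimb for 30 min. Serum was drawn by heart puncture, and each mouse gave 1 small RNA library. Serum collects vesicles of every tissue, so vesicles from fewer cells of a type and less miRNA per cell cannot be told apart. Library totals ranged from 391708 to 1504137 counts, and 338 to 453 miRNAs were detected among sham mice against 489 to 666 among Acu/LFES mice. miR-486a-5p and miR-486b-5p, on the red cell list below, were identical in every library. Together these rows took 61.7% to 74.0% of the counts in 5 libraries and 29.2% in that of Acu/LFES mouse 6. Both rows enter these shares and the library totals, so the pair counted once would take a smaller share. Normalized counts are given as CPM, each count divided by the library total times its TMM factor from edgeR and brought to a common size. TMM sets that factor from the miRNAs that differ least between libraries.

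The cluster was present in every library, almost wholly as miR-143-3p, its guide strand. Of the 4 members, 3 had at least 1 count and 2 passed edgeR's filter on low counts, miR-143-3p and miR-145a-5p. miR-143-3p summed to 4876 counts over the 6 mice, miR-145a-5p to 186, miR-145a-3p to 9 and miR-143-5p to 0. miR-143-3p made up 89.1% to 98.8% of the cluster's counts among sham mice and 96.0% to 96.9% among Acu/LFES mice. The whole cluster took 6.78, 5.84 and 3.52 of every 10000 counts in sham mice 1, 2 and 3, and 11.6, 9.24 and 34.8 in Acu/LFES mice 4, 5 and 6. By count, miR-143-3p ranked 52nd to 67th among the miRNAs of a sham library and 42nd to 52nd in an Acu/LFES library.

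miR-143-3p was counted 419, 355 and 123 times in sham mice 1, 2 and 3, and 1672, 563 and 1744 times in Acu/LFES mice 4, 5 and 6. After scaling these were 604, 828 and 406 CPM among sham mice and 1001, 1171 and 1591 CPM among Acu/LFES mice. The groups did not overlap, since the lowest Acu/LFES mouse stood above the highest sham mouse. The exact 95% Poisson interval of that lowest mouse, number 4, was 953 to 1050 CPM, against 744 to 919 CPM for sham mouse 2. Such intervals cover counting error only, as no molecular identifiers are described.

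The mean of miR-143-3p was 613 ± 211 CPM among sham mice and 1254 ± 304 CPM among Acu/LFES mice (SD, 3 mice each). The log2 fold change of Acu/LFES over sham was 1.03 with a standard error of 0.31, a fold of 2.04. The quasi-likelihood test of edgeR gave it an adjusted p of 0.269 over 259 miRNAs (Benjamini-Hochberg), of which 0, or 0%, had an adjusted p under 0.05, against 8 with DESeq2 on the same miRNAs. Without adjustment edgeR put 23 under 0.05, of which 15 were higher with Acu/LFES, or 5.79% of those tested, and miR-143-3p was one of these. That split depended on scaling, with 23 of 23 higher with total counts and 7 of 7 with scaling to miR-103-3p. Complete separation with Acu/LFES above sham held for 23 miRNAs, or 8.88%, again with miR-143-3p among them. With DESeq2, the tool named in the submitters' processing notes, run on the same miRNAs, 3 of the 148 that received an adjusted p were higher at an adjusted p under 0.05, or 2.03%, and miR-143-3p was one of these 3 with an adjusted p of 0.0402. With DESeq2 on every row with a count, an alternative added after seeing the data, its adjusted p was 0.119. As the cluster was picked with that call in view, nothing is read from these shares.

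**Figure D1:**
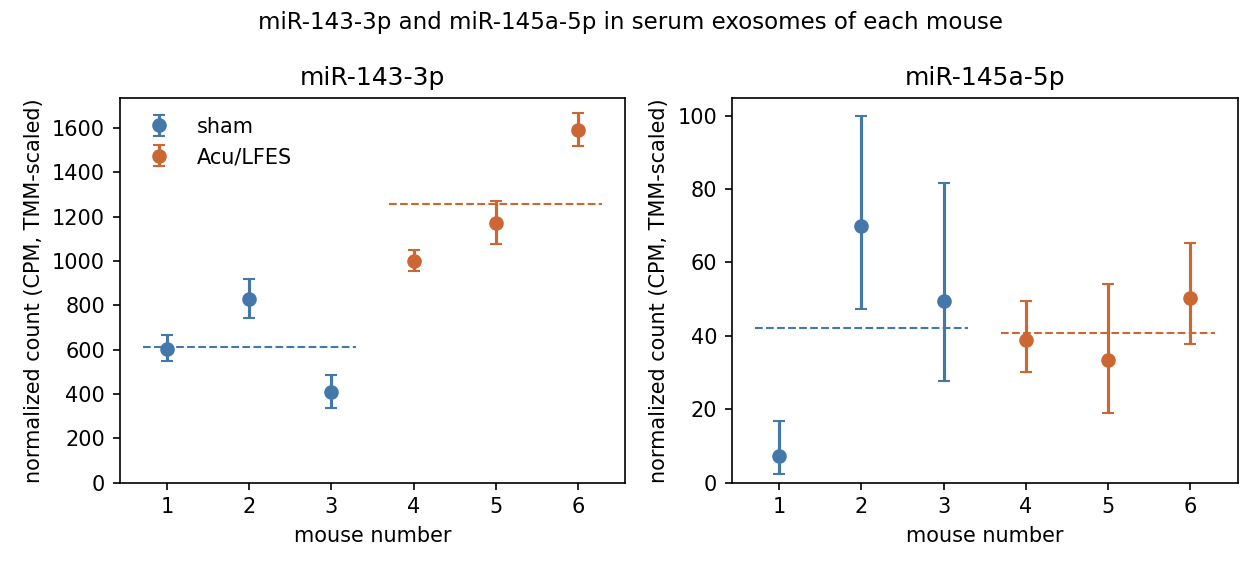
Normalized count (CPM, linear axis from 0) of miR-143-3p on the left and miR-145a-5p on the right in each of the 6 mice. Bars are exact 95% Poisson intervals of the count and dashed lines are group means. miR-143-3p is at 406 to 828 CPM among sham mice and at 1001 to 1591 CPM among Acu/LFES mice, whereas miR-145a-5p overlaps between the groups and is lowest in sham mouse 1, at 7.21 CPM.

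miR-145a-5p, the guide strand of the other hairpin and the member best known for driving the contractile state, was counted 5, 30 and 15 times in sham mice 1, 2 and 3, and 65, 16 and 55 times in Acu/LFES mice 4, 5 and 6. These were 7.21, 70.0 and 49.6 CPM among sham mice and 38.9, 33.3 and 50.2 CPM among Acu/LFES mice. The groups overlapped, with both the lowest and the highest mouse among the sham mice. Sham mouse 1 stood apart, since its 95% Poisson interval of 2.34 to 16.8 CPM ended below the lowest bound of any other mouse, 19.0 CPM in Acu/LFES mouse 5. The other 5 mice had intervals that all overlapped one another.

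The mean of miR-145a-5p was 42.3 ± 32.0 CPM among sham mice and 40.8 ± 8.62 CPM among Acu/LFES mice (SD, 3 mice each). The log2 fold change was -0.030 with a standard error of 0.89 (edgeR adjusted p = 0.992), and its 95% interval ran from -2.02 to 1.96. That interval holds the value of miR-143-3p, so a change of the same size in miR-145a-5p could not be told from none in these mice. The fitted changes of the 2 mates differed by 1.06 on the log2 scale, which is 1.12 times their combined standard error. Without sham mouse 1, the log2 fold change of miR-145a-5p was -0.50 with a standard error of 0.65. Without sham mouse 2, the highest, it was 0.58.

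**Figure D2:**
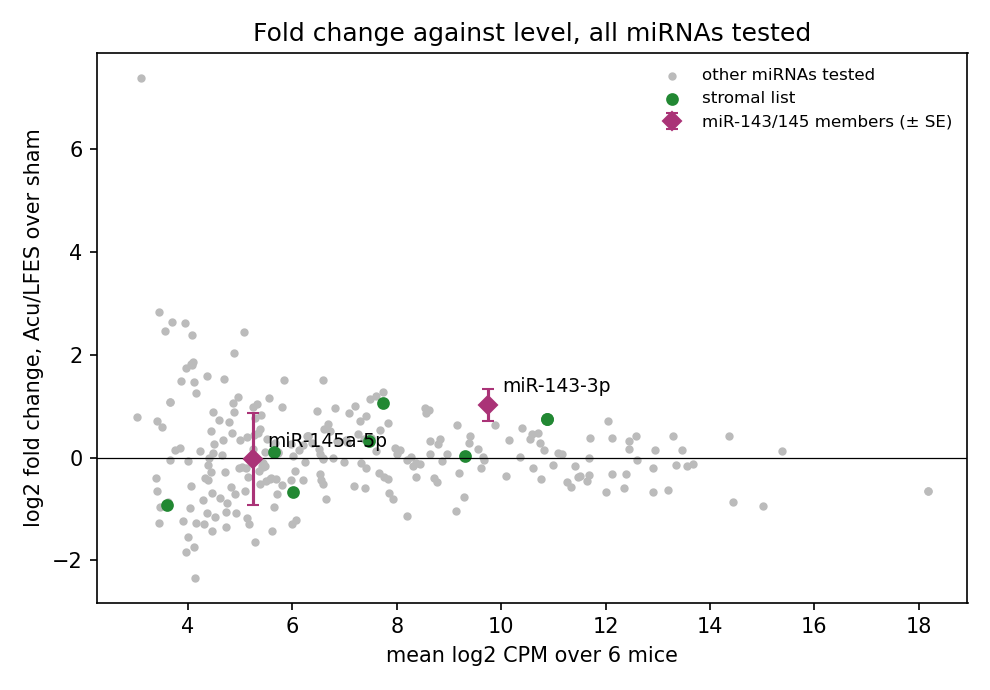
Log2 fold change of Acu/LFES over sham against the mean log2 CPM over 6 mice for the 259 miRNAs tested. Diamonds are miR-143-3p (1.03) and miR-145a-5p (-0.030) with bars of 1 standard error, and green points are the tested miRNAs of the stromal list. The scatter of all miRNAs widens toward low levels, where miR-145a-5p lies.

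The other arms were scarce. miR-143-5p, the passenger strand of its hairpin, had 0 of the 4876 counts of both arms, which allows a share of up to 0.0615% by the limit of 3 counts, or 0.0787% by the Wilson 95% bound. miR-145a-3p was counted 5 times in Acu/LFES mouse 4, 4 times in Acu/LFES mouse 5 and 0 times in the 4 other mice. It made up 9 of the 195 counts of both miR-145a arms, or 4.62% (Wilson 95% interval 2.45% to 8.54%). A count of 3 corresponds to 4.32 to 9.91 CPM in a sham library, and the Acu/LFES mice with counts were at 2.99 and 8.32 CPM, so a difference in this arm was not detectable at this depth. Among all 70 hairpins with both arms listed and at least 1000 counts, 8 had 0 counts of the lesser arm, and the median share of the lesser arm was 0.879%. miR-143 was thus one of 8 hairpins seen on a single arm. miR-145b, a separate mouse miRNA of a similar name, had 0 counts in every library.

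Added together, the 4 members had 424, 385 and 138 counts among sham mice and 1742, 583 and 1799 among Acu/LFES mice. In the same edgeR fit with the 4 rows replaced by this sum, the mean was 657 ± 218 CPM among sham mice and 1293 ± 307 CPM among Acu/LFES mice (SD, 3 mice each), and the log2 fold change was 0.98 with a standard error of 0.30 (adjusted p = 0.310). The sum followed miR-143-3p, which supplied most of it.

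Within a library, the ratio of the mates needs no scaling. With 0.5 counts added to each, miR-143-3p exceeded miR-145a-5p by 76.3-fold, 11.7-fold and 7.97-fold in sham mice 1, 2 and 3, and by 25.5-fold, 34.2-fold and 31.4-fold in Acu/LFES mice 4, 5 and 6. The 3 Acu/LFES mice thus lay inside the range of the sham mice. The log2 ratio of miR-145a-5p to miR-143-3p was -4.26 ± 1.74 among sham mice and -4.91 ± 0.22 among Acu/LFES mice (SD, 3 mice each), and the difference of -0.65 was smaller than the SD of the sham group. Without sham mouse 1 the difference was -1.65, and without sham mouse 3 it was -0.016.

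No shared movement of the mates across the 6 mice was detectable. Relative to their own means on the log2 CPM scale, miR-143-3p was at -0.49, -0.04 and -1.06 in sham mice 1, 2 and 3 and at 0.23, 0.46 and 0.90 in Acu/LFES mice 4, 5 and 6. miR-145a-5p was at -1.95, 0.94 and 0.47 among sham mice and at 0.14, -0.08 and 0.48 among Acu/LFES mice. Both mates lay below their means in sham mouse 1 and above them in Acu/LFES mice 4 and 6, and they lay on opposite sides in sham mice 2 and 3 and Acu/LFES mouse 5.

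Pearson's r between the 2 mates over 6 mice was 0.24 (two-sided exact permutation test over 720 orders, p = 0.626) and Spearman's rho was 0.14 (exact permutation p = 0.803), for the single pair that could be compared, so that adjustment leaves both p-values as they are. Without mice 3 and 6, the farthest from the median of miR-143-3p, r was 0.64 over 4 mice. With values centred on the group means, which removes the difference between the groups, r was 0.15 (exact permutation within groups, p = 0.833). Leaving out 1 mouse moved r between -0.26, without sham mouse 1, and 0.63, without sham mouse 3, so even its sign rested on a single library. By r to miR-143-3p, miR-145a-5p came 104th of the 258 other miRNAs tested, whose median r was 0.072. By r to miR-145a-5p, miR-143-3p came 75th.

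**Figure D3:**
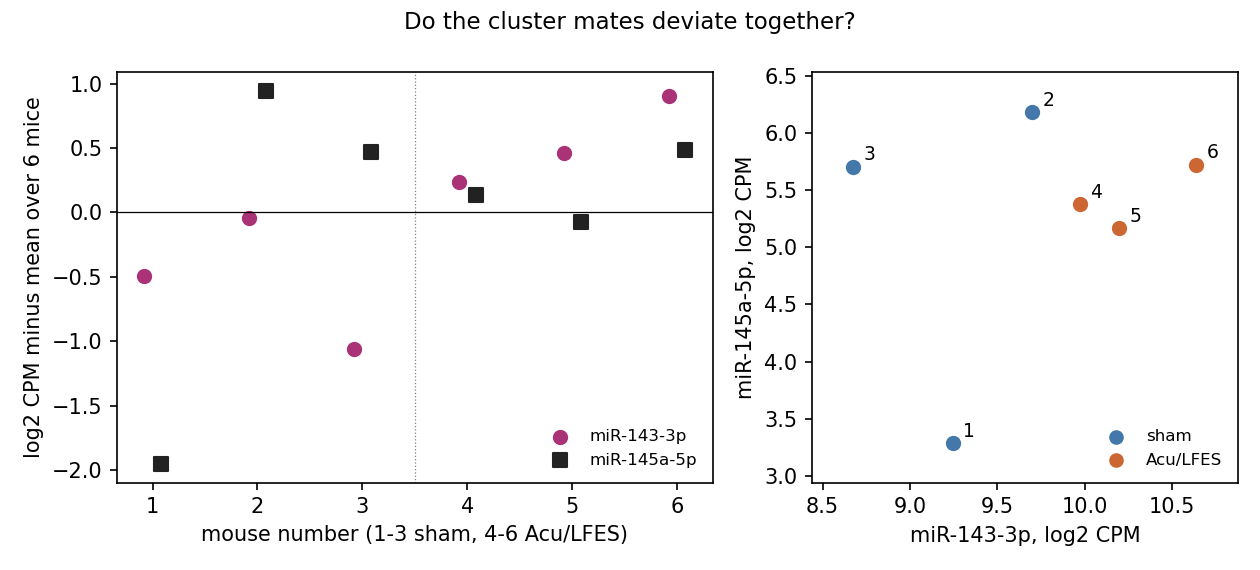
Left, log2 CPM of miR-143-3p (circles) and miR-145a-5p (squares) in each mouse minus its mean over 6 mice. Right, the same 2 miRNAs against each other on the log2 CPM scale, each point labelled with its mouse number. The mates lie on opposite sides of their means in mice 2, 3 and 5, and r is 0.24.

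The miRNAs whose pattern over the 6 mice was most like that of miR-143-3p were miR-148a-3p (r = 0.95), miR-339-5p (0.92), miR-431-5p (0.91), miR-222-3p (0.88) and miR-125b-5p (0.87), by Pearson's r of log2 CPM. These values are a description over 6 mice, and the points share the scaling of each library. With values centred on the group means, r was 0.92 for miR-148a-3p, 0.87 for miR-339-5p, 0.87 for miR-431-5p, 0.74 for miR-222-3p and 0.88 for miR-125b-5p. The choice of these 5 by r over the same mice sets part of these values. Their mature sequences from RefSeq (GRCm38.p6) are shown 5′ to 3′ with the seed, bases 2 to 8, in capitals, together with miR-152-3p and miR-221-3p, which were on the marker lists and share a seed with one of them.
miR-148a-3p: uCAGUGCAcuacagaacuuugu
miR-152-3p: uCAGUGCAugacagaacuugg
miR-222-3p: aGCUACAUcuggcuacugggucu
miR-221-3p: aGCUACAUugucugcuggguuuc
miR-339-5p: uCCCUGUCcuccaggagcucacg
miR-431-5p: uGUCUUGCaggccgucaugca
miR-125b-5p: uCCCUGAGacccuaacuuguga

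miR-148a-3p was at 265, 310 and 221 CPM in sham mice 1, 2 and 3 and at 511, 472 and 568 CPM in Acu/LFES mice 4, 5 and 6. As with miR-143-3p, its groups did not overlap, and its lowest mouse was also sham mouse 3 and its highest Acu/LFES mouse 6. Such a pattern follows in part from its choice by r, and 8.88% of all miRNAs tested separated in this direction. miR-431-5p, from the imprinted Dlk1-Dio3 region, had the same order of mice as miR-143-3p, but with 0 counts in sham mouse 3 and at most 14 in the other sham mice. miR-222-3p, which smooth-muscle and endothelial cells both make, was at 483, 565 and 340 CPM among sham mice and at 523, 911 and 733 CPM among Acu/LFES mice, so its groups overlapped. Its seed relative miR-221-3p had a log2 fold change of 0.42 with a standard error of 0.23.

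The miRNAs most like miR-145a-5p were others, namely miR-218-5p (r = 0.94), miR-483-5p (0.93), miR-18a-5p (0.93), miR-511-5p (0.92) and miR-298-5p (0.92). miR-483-5p, which is made from an intron of the growth factor gene Igf2, followed the order of the mice exactly, with 14.4, 79.3 and 49.6 CPM among sham mice and 35.9, 25.0 and 57.5 CPM among Acu/LFES mice. In all 5 sham mouse 1 had the lowest value. miR-218-5p and miR-18a-5p had 0 counts there, and miR-511-5p and miR-298-5p had 38.9 and 40.4 CPM. For miR-511-5p the likeness came from that mouse, as its Spearman's rho to miR-145a-5p was 0.086. None of the 5 was among those most like miR-143-3p. With only 5 of 258 miRNAs named for each mate, lists without a shared name are likely in any case, so nothing is read from this. The choice of these 5 by r over the same mice also sets part of their values.

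Set against other miRNAs of the same library, which needs no scaling, miR-143-3p separated the groups for some partners and not for others. Against miR-103-3p, the reference of the study's serum qPCR, its log2 ratio was -0.27, -0.72 and -0.40 among sham mice and -0.05, 0.94 and 1.30 among Acu/LFES mice, with no overlap. Against miR-126a-3p, an endothelial miRNA, it was 0.33, 0.91 and 0.83 among sham mice and 1.21, 2.65 and 1.85 among Acu/LFES mice, again with no overlap. Against miR-125b-5p, common in stromal cells, it was 1.91 ± 0.20 and 2.64 ± 0.24 (SD, 3 mice each), also without overlap and with the smallest spread of the 5 partners. The share of all miRNAs that separate against these partners was not computed. As the call of miR-143-3p was known when the cluster was picked, nothing is read from these separations.

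For the other partners the groups overlapped. Against miR-16-5p, a miRNA abundant in blood cells, the log2 ratio of miR-143-3p was -3.57, -3.29 and -4.21 among sham mice and -3.43, -2.45 and -2.36 among Acu/LFES mice, where mouse 4 fell among the sham mice. Against miR-199a-3p, a fibroblast and mural-cell miRNA whose row carries the same counts as miR-199b-3p, it was -2.03, -0.38 and -1.38 among sham mice and -1.57, -0.39 and -1.05 among Acu/LFES mice, a difference of 0.26 beside an SD of 0.83 among sham mice. miR-145a-5p overlapped between the groups against all 5 partners, with differences from -0.39 against miR-199a-3p to 0.57 against miR-126a-3p.

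**Figure D4:**
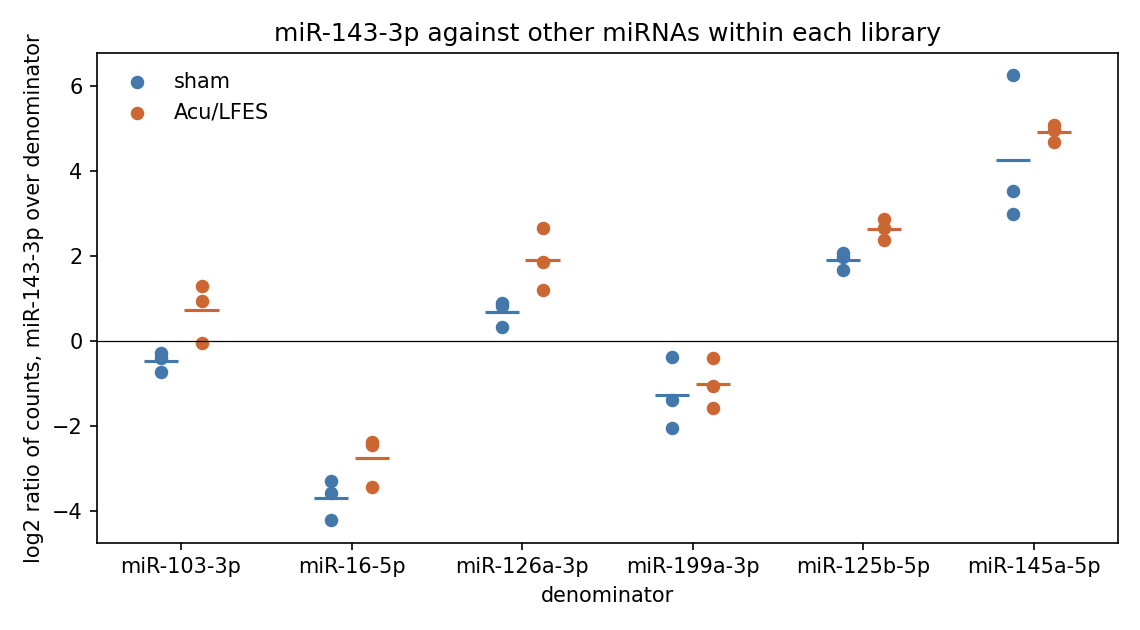
Log2 ratio of the counts of miR-143-3p to each of 6 other miRNAs within each library, with 0.5 counts added to both, in 3 sham and 3 Acu/LFES mice, with short lines at the group means. The groups separate against miR-103-3p, miR-126a-3p and miR-125b-5p and overlap against miR-16-5p, miR-199a-3p and the cluster mate miR-145a-5p.

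Markers of other cell types were set beside the cluster by lists. miR-199a-3p and miR-199b-3p carry the same counts, as do miR-486a-5p and miR-486b-5p, and each pair is counted once here, a choice made after seeing the data. Of the 10 distinct stromal rows 7 were tested, 5 of these had a positive log2 fold change, and their median was 0.11. Over all miRNAs tested 52.9% had a positive log2 fold change and the median was 0.050. With the miR-199 pair counted as separate rows the stromal median was 0.22, with 6 of 8 positive. The largest stromal values were 1.07 (standard error 0.50) for miR-152-3p and 0.75 (standard error 0.39) for miR-199a-3p. miR-10b-5p, another stromal miRNA of a level like that of miR-143-3p, was at 624 ± 20.7 CPM among sham mice and 636 ± 123 CPM among Acu/LFES mice (SD, 3 mice each), and miR-214-3p had a log2 fold change of -0.66 (standard error 0.68). The summed stromal level was 2019 to 3693 CPM among sham mice and 2932 to 4567 CPM among Acu/LFES mice, with overlap. The summed level of the cluster was 456 to 898 CPM among sham mice and 1043 to 1642 CPM among Acu/LFES mice. Most of that sum was miR-143-3p, whose call was known when the cluster was picked. No contrast with the stromal list is read from it.

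The 4 endothelial miRNAs were all tested, and 2 had a positive log2 fold change, 0.64 (standard error 0.31) for miR-222-3p and 0.42 (standard error 0.23) for miR-221-3p. Of the others, miR-126a-3p had -0.12 (standard error 0.42) and miR-126a-5p -0.41 (standard error 0.22, edgeR adjusted p = 0.568). miR-126a-5p was at 1999 ± 129 CPM among sham mice and 1502 ± 220 CPM among Acu/LFES mice (SD, 3 mice each). Every Acu/LFES mouse lay below every sham mouse for miR-126a-5p, as for miR-200c-3p and miR-375-3p of the epithelial and liver list. The share of all miRNAs tested that separated in this direction was not computed, so nothing is read from it. Of the 7 striated-muscle miRNAs 3 were tested, and 0 had a positive log2 fold change (median -0.042). Among them miR-1a-3p and miR-133a-3p, made by skeletal and cardiac muscle, had log2 fold changes of -0.011 (standard error 0.33) and -0.042 (standard error 0.25), and miR-206-3p, made by skeletal muscle, had -0.77 (standard error 0.51). miR-208a-3p and miR-208b-3p, which mark heart and slow muscle, had 0 counts. miR-499-5p, another miRNA of heart and slow muscle, was not tested and had 51 counts in Acu/LFES mouse 4, 20 in Acu/LFES mouse 6 and 0 in the other mice. In the white cell and platelet list 1 of 6 tested miRNAs had a positive log2 fold change (median -0.39), in the epithelial and liver list 2 of 7 (median -0.43), and in the red cell list 2 of 3 distinct rows (median 0.34). With the miR-486 pair as separate rows the red cell median was -0.16, so its sign depended on that choice. In the red cell list miR-486a-5p, the most abundant row, had -0.66 (standard error 0.64) and miR-451a, the erythroid miRNA, 0.34 (standard error 0.34). The neutrophil and platelet miRNA miR-223-3p, at 0.072 (standard error 0.29), was the only positive member of its list. miR-142a-5p, the most abundant of that list, had -0.33 (standard error 0.31). The hepatocyte miRNA miR-122-5p had -0.67 (standard error 0.67). The epithelial and islet miRNA miR-375-3p, at -1.14 (standard error 0.31), was the marker outside the cluster with an unadjusted p under 0.05. At an adjusted p under 0.05 edgeR called 0 miRNAs of any list, and DESeq2 on the same miRNAs called miR-143-3p and miR-375-3p (adjusted p = 0.00664). The part of any other cell type in the level of miR-143-3p was not tested.

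The library of Acu/LFES mouse 6, with the lowest share of miR-486a-5p and miR-486b-5p, also had the highest miR-143-3p. Without that mouse the log2 fold change of miR-143-3p was 0.87 (adjusted p = 0.659), and the remaining Acu/LFES mice were still above all sham mice. Without sham mouse 3, the lowest, it was 0.85 (adjusted p = 0.545). Over 15 alternative settings the log2 fold change of miR-143-3p was positive in 15, from 0.85 to 1.82, while that of miR-145a-5p was positive in 8 of 14 and negative in 6.

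**Figure D5:**
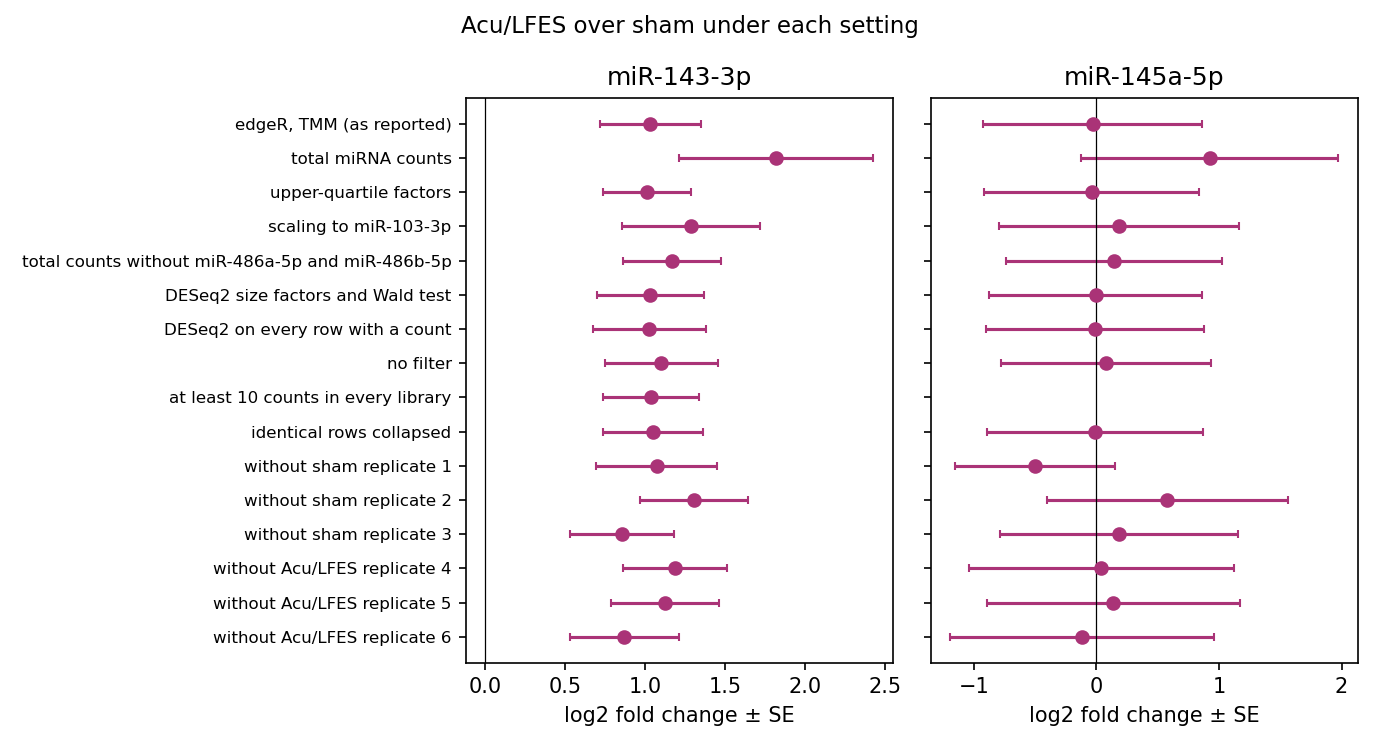
Log2 fold change of Acu/LFES over sham with bars of 1 standard error for miR-143-3p (left) and miR-145a-5p (right) under each scaling, filter and test and with each mouse left out. miR-143-3p lies between 0.85 and 1.82 throughout, and miR-145a-5p lies on both sides of 0. With at least 10 counts required in every library, miR-145a-5p was not tested.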

How the data were processed

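Small RNA of serum exosomes from 3 sham and 3 Acu/LFES mice was sequenced in a single lane. The values deposited by the authors are raw counts, whole numbers of reads for each mature miRNA and mouse with no normalization. The submitters' processing notes name bcl2fastq 1, cutadapt 1.6 and DESeq2 1.26.0. The aligner, the counting and the miRNA annotation are not given in the sources used here, and they decide how reads of similar arms were assigned. No coordinates were used.

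Counts were tested with edgeR 4.0.16 in R 4.3.3 (TMM factors, default filter, quasi-likelihood test, Benjamini-Hochberg adjustment, threshold 0.05) on all miRNAs. Of 1982 rows 954 had a count and 259 passed the filter. Standard errors were taken from the F statistic. log2 CPM for correlations used a prior count of 2, and ratios within a library used 0.5 added counts. Ratios of rows at or near 0 counts are not reported. The edgeR fit was also run on simulated counts with known changes and a single spread between mice for all miRNAs. The outcome of that run is not reported here. No pair of libraries agreed within sampling noise by a chi-square test. Beyond the traits given above, the labels identify the mice only by their numbers. The edgeR and DESeq2 p-values set a group difference against the spread between these samples.

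The members, lists and tests were chosen with earlier results of these data known. Named miRNAs were the members, miR-145b, the 5 most correlated with each tested member, up to 4 abundant markers per list and the scaling references. In addition miR-214-3p, miR-499-5p and the 0-count miR-208 rows were named once values were known. The alternatives were DESeq2 1.42.0, scaling to total counts, to miR-103-3p or to totals without miR-486a-5p and miR-486b-5p, upper-quartile factors, no filter, a minimum of 10 counts in every library, identical rows collapsed, a pseudocount of 1, and each mouse left out. DESeq2 on every row, and marker lists with identical rows counted once, were added after seeing the data. Figures used matplotlib 3.10.9 in Python 3.11.15.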

Additional observations from a re-analysis of the deposited data

How the results depend on the processing

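edgeR called 0 miRNAs at an adjusted p under 0.05 under each of its alternatives and with each mouse left out. With TMM, the default filter and all 6 mice it put 23 at an unadjusted p under 0.05. DESeq2 on the same miRNAs called 8 after adjustment, with log2 fold changes of 1.03 for miR-143-3p (adjusted p = 0.0402, and 0.0402 to 0.995 over all alternatives) and 0.99 for the sum of the 4 members (adjusted p = 0.0470). On every row with a count DESeq2 called 1, without miR-143-3p, and 46 at an unadjusted p under 0.05. The unadjusted number was 7 with scaling to miR-103-3p, 53 with no filter, and 19 to 48 with 1 mouse left out, highest without sham mouse 1. The cause of these differences was not tested.

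The log2 fold change of miR-145a-5p turned to 0.92 with total counts, 0.18 with scaling to miR-103-3p, 0.14 with totals without miR-486a-5p and miR-486b-5p and 0.079 with no filter, and went from -0.50 to 0.58 with 1 mouse left out. Total counts shifted the median of all miRNAs to 0.71, so relative to it miR-143-3p stood at 1.11 and miR-145a-5p at 0.21. No filter shifted that median to 0.68, and relative to it miR-143-3p stood at 0.42 and miR-145a-5p at -0.60. With total counts all 23 miRNAs under an unadjusted p of 0.05 lay higher with Acu/LFES, as did 7 of 7 with scaling to miR-103-3p and 20 of 26 without miR-486a-5p and miR-486b-5p, against 15 of 23 with TMM. The correlation of the mates went from -0.26 to 0.63 with 1 mouse left out and was 0.52 with total counts. With at least 10 counts in every library miR-145a-5p gave no value. miR-145a-5p had 5 to 65 counts per library, and the parts of counting error and of spread between mice in its standard error were not separated. No paired analysis was possible because the mouse numbers are not shared between the groups.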
